A study of Mus musculus with 9 samples.

Results

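Hairpin sh902, 1 of the short hairpin RNAs raised against Phf2, was compared with a non-targeting hairpin (shNT) by RNA-seq in cultured mouse neural stem cells. The comparison took 6 of the 9 libraries of the series, 3 with sh902 and 3 with shNT, and every expressed gene. The other 3 libraries, with a second Phf2 hairpin named sh900, entered the same model and served to test where the hairpins differ. The cells of all 3 groups were primary embryonic neural stem cells, labelled as coming from the subventricular zone of the brain, grown on laminin with FGF and EGF and collected 3 days after the hairpin. Strain, age and the number of animals or cultures behind the libraries are not given in the labels, so the spread behind each p-value is that between libraries and may be technical. Library titles carry the date marks 30_08 or 03_09 or no date, with 1 library of each group per label. What a date marks is not stated.

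Phf2 encodes a JmjC-domain protein of the KDM7 family, histone lysine demethylases that read methylated lysine 4 of histone H3 through a PHD finger and act on repressive methyl marks such as that on lysine 9. A short hairpin RNA is cut in the cell into a small RNA that guides the silencing machinery to transcripts it matches. Neural stem cells of the subventricular zone divide under FGF and EGF, and on withdrawal of these factors give rise to neurons, astrocytes and oligodendrocytes.

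The 6 libraries held 23212472 to 31986455 counts, so 1 CPM (the usual count scale per library total, after TMM scaling) stood for 23.2 to 32 counts. The neural stem cell genes Nes, Sox2, Vim, Fabp7 and Slc1a3 were present in all 6 libraries, with summed levels of 6086, 6772 and 5510 CPM in the undated, 30_08 and 03_09 shNT libraries and 7396, 9506 and 6216 CPM with sh902. All values by library below follow that order of labels. Summed levels of 5 microglia markers were 0.577 to 1.49 CPM in these libraries. The endothelial markers Pecam1, Cdh5, Kdr and Cldn5 summed to 2.28 to 7.97 CPM. Of these Kdr stood at 1.83 to 7.48 CPM, and Cdh5 was at 0 in all 3 sh902 libraries. The controls differed widely among themselves: 30 mitosis genes summed to 1999, 5597 and 370.3 CPM in the shNT libraries, against 3067, 1781 and 2844 with sh902. Each result was read at every label, as the log2 ratio of sh902 to the shNT library of the same label (a same-label ratio, with a prior count of 2). It was also read from 1 edgeR fit in which the label was a block.

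Phf2 (ENSMUSG00000038025, chromosome 13, 48801750 to 48871119 on GRCm38) stood at 56.3, 52.8 and 48.6 CPM with shNT and at 25, 17 and 28.1 CPM with sh902. All 3 sh902 libraries lay below all 3 controls, and the groups did not overlap. The transcript that remained was 44.4%, 32.1% and 57.7% of the same-label control. The fitted log2 fold change was -1.21 ± 0.19 (SE, edgeR adjusted p = 0.0119), and an exact two-sided permutation test of log2 CPM gave p = 0.1, the smallest that 10 splits of 6 libraries allow. With sh900 the levels were 19.8, 14.9 and 25.5 CPM, and the difference between the hairpins was 0.22 ± 0.19 (SE, edgeR adjusted p = 0.55). The adjusted p was lost when the undated shNT library (edgeR adjusted p = 0.0592), the undated sh902 library (0.0829) or the 03_09 sh902 library (0.0597) was left out, while the fold change stayed between -1.44 and -0.99.

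**Figure D1:**
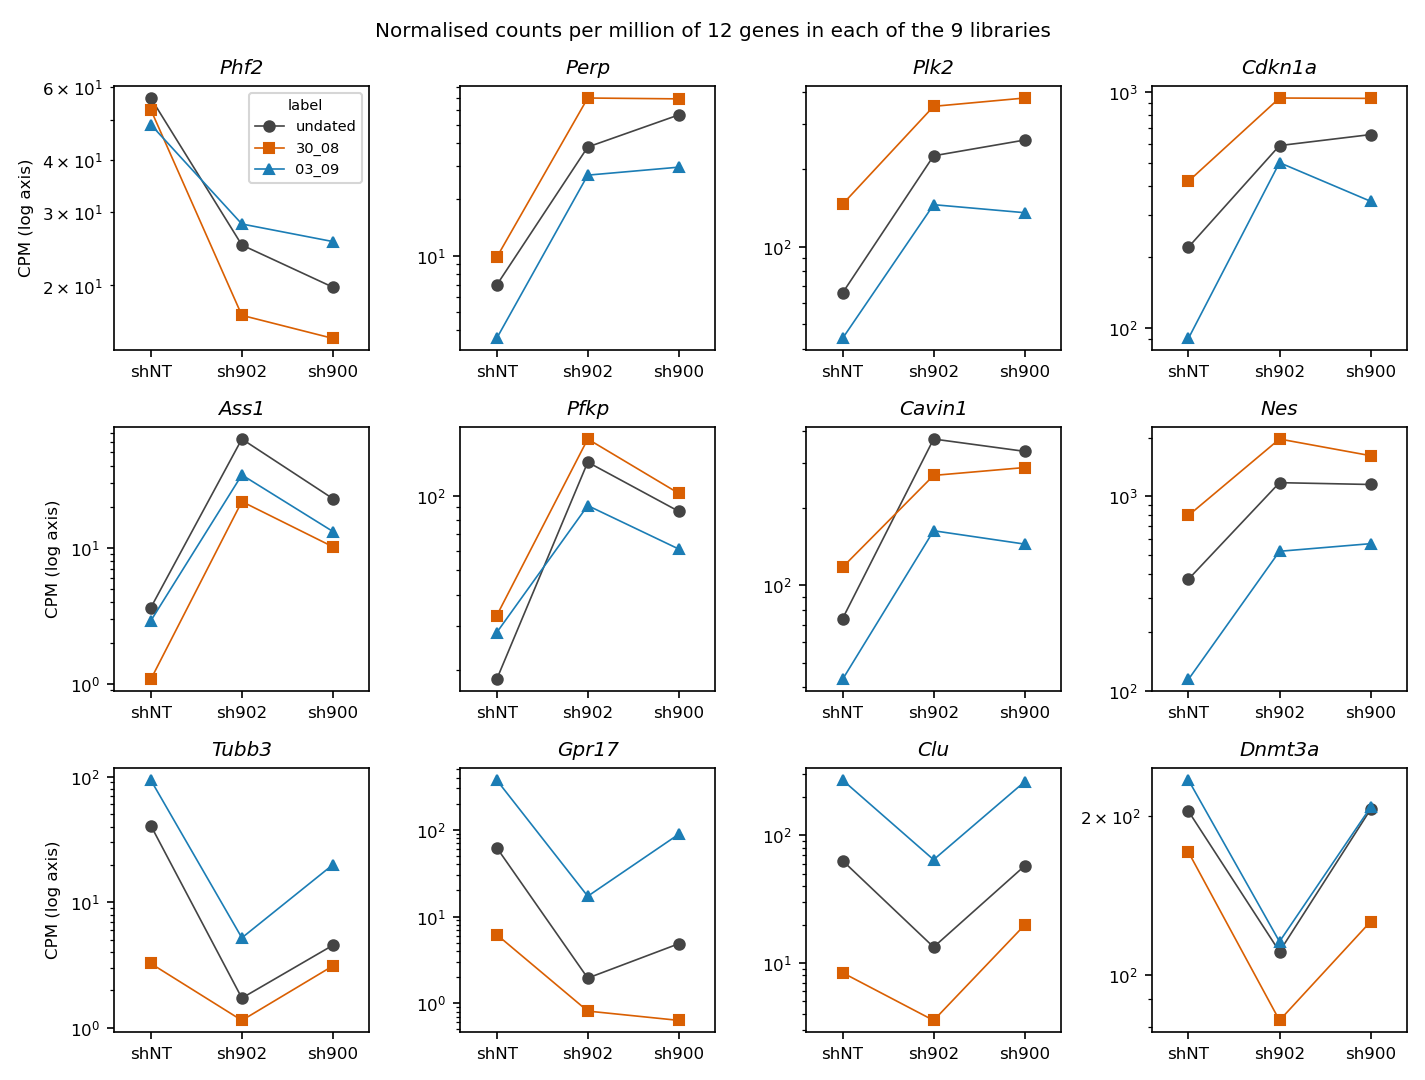
Normalised CPM on log axes for 12 genes, with 1 point per library, lines joining libraries of 1 label and colours marking the label; group order is shNT, sh902, sh900. Phf2 falls at every label, Perp, Plk2, Cdkn1a and Nes stand above the same-label control with both hairpins, and Clu and Dnmt3a are low in the sh902 libraries and near the control with sh900 in the undated and 03_09 libraries.

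With the label as a replicate block, edgeR called 902 genes higher with sh902 (5.12% of 17602 tested) and 948 lower (5.39%) at a Benjamini-Hochberg adjusted p under 0.05. Of the genes called higher, 485 passed 2-fold and 138 passed 4-fold; of those called lower, 501 and 134 did. The called genes were 94.3% and 93.7% protein coding, against 78.4% of all genes tested, and their median summed exon length was 4387 bases (higher) and 5341 bases (lower), against 3873 bases over all genes. They were also more abundant, with a median level of 31.6 and 31.7 CPM, against 16.2 CPM over all genes. The part that level has in these differences was not tested. All 902 genes called higher had positive ratios at the 3 labels and 944 of the 948 called lower had negative ones; since the ratios and the fit use the same libraries, this describes the calls and adds no support. The calls rest on the block and on the sh900 libraries. Without the block edgeR called 0 genes (1263 higher and 1513 lower at an unadjusted p under 0.05), and with the block but the 6 libraries alone, where 2 residual degrees of freedom remain, it also called 0 (1813 and 1859 unadjusted). DESeq2 with the block and all 9 libraries called 1343 and 1490 and limma-voom 1026 and 1120. When libraries were left out in turn, the counts were lowest at 40 higher and 5 lower (undated sh902 library left out) and highest at 1986 and 1771 (30_08 control left out); they were 171 and 145 when the undated control was left out, 169 and 129 without the 03_09 sh902 library and 437 and 487 without the 03_09 shNT library. With 1 sh900 library left out the counts were lower as well: 480 and 478, 564 and 535, and 547 and 563 genes were called without the undated, 30_08 and 03_09 sh900 library.

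The 3 labels did not show the same response across the whole transcriptome. Over 17602 genes, which share library depth and are not independent replicates, same-label ratios correlated at Pearson r = 0.62 between the undated and 03_09 labels, 0.299 between undated and 30_08, and 0.149 between 30_08 and 03_09. Signs matched for 75.2%, 60% and 57.2% of genes. Ratios above 1 at all 3 labels were found for 312 genes (1.77%), and ratios below -1 at all 3 for 259 (1.47%). By level alone, 1858 genes (10.6%) had all 3 sh902 libraries above all 3 shNT libraries, and 1918 (10.9%) had them all below. The median ratio of the genes called higher was 1.18, 0.89 and 1.04 at the undated, 30_08 and 03_09 labels, and of those called lower -1.24, -0.88 and -0.92.

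The steadiest rises, ranked by the smallest of the 3 same-label ratios, included genes of an amino acid enzyme, a phosphodiesterase and a membrane protein. Ass1 encodes argininosuccinate synthase, which builds the precursor of arginine from citrulline and aspartate (ENSMUSG00000076441, chromosome 2, 31470207 to 31520672). It stood at 3.62, 1.08 and 2.9 CPM with shNT and 62.7, 21.8 and 34.2 with sh902, so the lowest sh902 library was above the highest control. The ratios were 4.09, 4.25 and 3.53, the fitted log2 fold change 3.97 ± 0.23 (SE, edgeR adjusted p = 0.00117), and the call held in all 9 fits that left out 1 library each. Pde1a, a calcium- and calmodulin-dependent phosphodiesterase gene, went from 0.987, 0.961 and 0.496 to 10.8, 23.4 and 5.97 CPM (fold change 14.5, edgeR adjusted p = 0.00547). Tm4sf1, for a small membrane protein of the tetraspanin-like L6 family, went from 2.92, 2.31 and 2.29 to 42.3, 35 and 16.8 CPM, with ratios of 3.82, 3.88 and 2.84. Aldh1a3, which makes retinoic acid from retinaldehyde, had ratios of 3.57, 2.84 and 2.81 although its control level ranged from 0.458 to 9.34 CPM. Fam135b (4.84, 3.82 and 3.71), Ccdc153 (2.88, 2.99 and 3.79), Ifi202b (5.97, 4.01 and 5.16) and Ifi204 (3.74, 5.41 and 2.84) completed the 8. The last pair are interferon-inducible genes with close relatives beside them, between which the authors' counting could split reads, and Ifi204 rests on at most 0.154 CPM in each control library.

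Among the steadiest falls were receptors, ligands and cytoskeletal genes of young neurons and oligodendrocyte precursors. Gpr17, a receptor gene of committed oligodendrocyte precursors (ENSMUSG00000052229, chromosome 18, 31942997 to 31949636), stood at 62.3, 6.19 and 375 CPM with shNT and 1.95, 0.812 and 17.1 with sh902. It was low in every sh902 library relative to its own control, but the groups overlap, because the 30_08 control lies below the 03_09 sh902 library. The ratios were -4.95, -2.82 and -4.45 and the fitted log2 fold change was -4.35 ± 0.55 (SE, edgeR adjusted p = 0.0109). Gpr17 lies inside Lims2, a gene on the other strand that was also called lower. The counting strand is not given, so the reads of the pair cannot be told apart. Dll3, a Notch ligand gene that acts within the cell, went from 151, 22.8 and 178 to 10.6, 5.55 and 41.1 CPM, a fitted fall of 6.55-fold. Tubb4a, a tubulin gene of neurons and oligodendrocytes, went from 9.1, 5.11 and 46.2 to 1.74, 0.983 and 3.15 CPM and had ratios of -2.34, -2.30 and -3.84. Pdgfrl fell by 5.51-fold, Tmem255b by 6.46-fold and Gjd2, the gene of the neuronal gap junction protein connexin 36, by 8.19-fold. Bmp3 and Phactr3 were called as well, at or below 0.415 CPM in each sh902 library. Of these 16 steady genes, the calls of Ass1, Pde1a, Fam135b, Ccdc153, Ifi202b and Ifi204 held in all 9 fits. Calls of Tm4sf1 and Pdgfrl held in 6, of Gpr17, Dll3, Tubb4a and Gjd2 in 7, of Bmp3 in 5, and of Aldh1a3, Tmem255b and Phactr3 in 8.

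**Figure D2:**
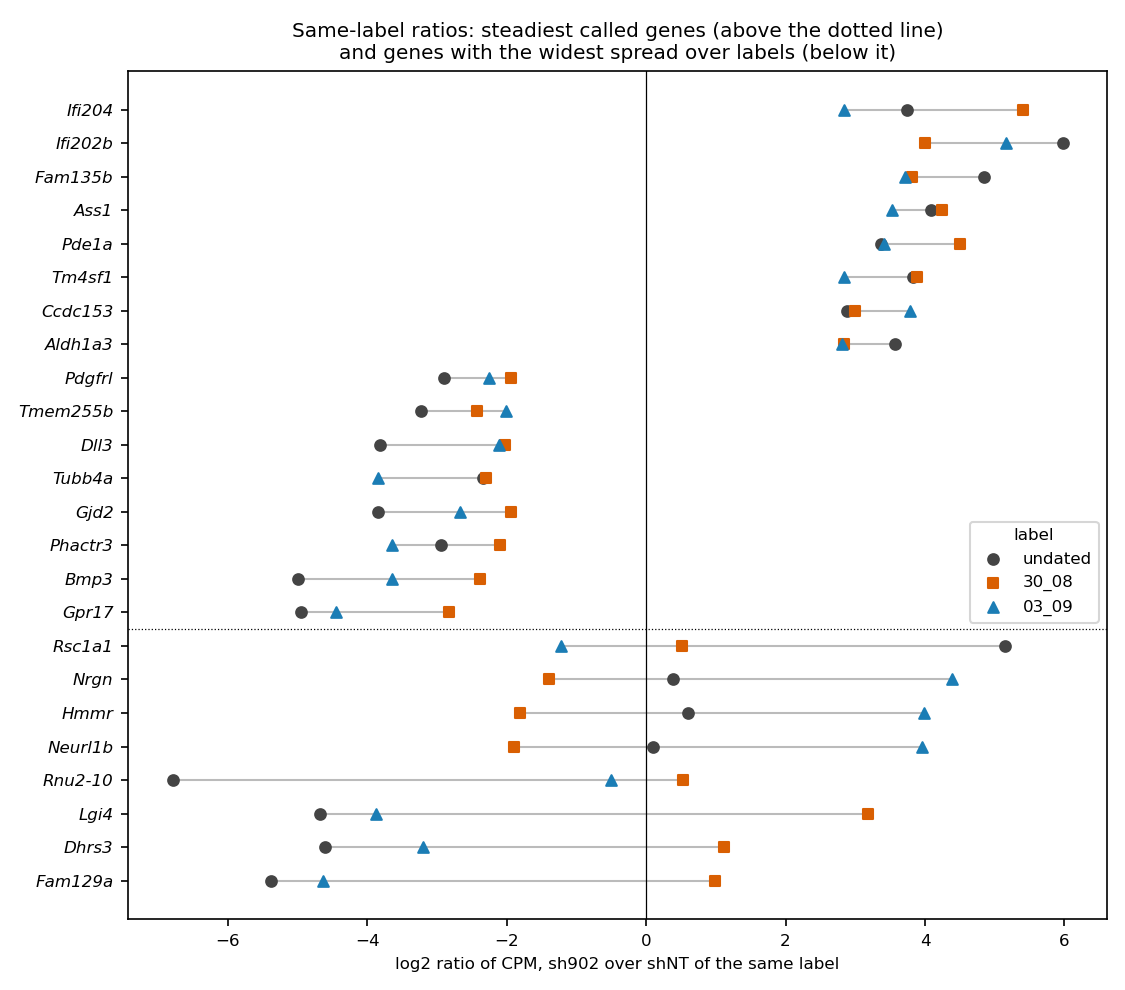
Log2 ratio of CPM of sh902 over the shNT library of the same label for the 8 steadiest genes called higher and the 8 called lower (above the dotted line) and the 8 genes with the widest range over labels and ratios on both sides of 0 (below it), with 1 point per label. Ratios of the steady genes stay on 1 side, from 2.81 upward or from -1.94 downward, by their selection; those below the line run from -6.79 to 5.15.

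By fitted size the largest called rises at a mean of at least 1 CPM were Shh, Ifi204, Ifi202b, Ereg, Tfap2c, Fam135b, Tlr4, Ass1, Pde1a, Spp1, Atg9b and Col8a1, between 3.58 and 5.32 on the log2 scale. Shh, whose product Sonic hedgehog is a secreted morphogen, was at 0.365, 0.0769 and 0.229 CPM with shNT and 29.3, 0.94 and 5.52 with sh902. Its undated sh902 library stood well above the rest. Spp1, which encodes the matrix protein osteopontin, stood at 0.767, 8.69 and 0.0382 and 13.7, 37 and 7.38 CPM, and its groups overlap, since the 30_08 control exceeds the 03_09 sh902 library. The largest called falls were Helt, Entpd2, Fa2h, Fxyd3, Bgn, Gpr17, Fxyd1, Bmp3, P4ha3, Phactr3, Lims2 and Tubb3, between -6.58 and -3.69. P4ha3, a collagen prolyl hydroxylase subunit gene, stood at 8.07, 0.231 and 29.2 CPM with shNT and 0.183, 0.0427 and 2.28 with sh902. Of these 12, all but Gpr17, Bmp3 and Tubb3 stood at or below 0.423 CPM in the 30_08 control, where their ratios rest on few counts. Gpr17 and Lims2 overlap on opposite strands, so their falls may not be separate. Calls of Spp1 and Fa2h held in 3 fits, and those of Tfap2c and Tubb3 in 4.

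Abundant genes with a fitted change of at least 2-fold showed the same mixture. Tnc, the matrix glycoprotein tenascin-C of neural stem cell niches, went from 316, 2162 and 134 to 2013, 4120 and 492 CPM. It was higher at each label, but its 30_08 control exceeds 2 of the sh902 libraries. Nes, which encodes the intermediate filament nestin, went from 374, 796 and 114 to 1174, 1968 and 521 CPM (1.68 ± 0.23 (SE, edgeR adjusted p = 0.00915) on the log2 scale). Msn, the gene of the membrane-cytoskeleton linker moesin, went from 264, 621 and 125 to 891, 1069 and 528 CPM. In the other direction Apoe, the main lipid carrier gene of astrocytes, went from 5088, 656 and 7184 to 487, 342 and 1824 CPM, and Adcyap1r1, the gene of the PACAP receptor, from 1369, 423 and 1414 to 239.6, 232 and 492. Sox4, a transcription factor gene of early neurons, fell to 565, 357 and 1090 CPM from 2161, 772 and 2405. Glud1 (-1.26), Myo10 (-1.19) and Ncan, the gene of the matrix proteoglycan neurocan (ratios of -1.51, -1.08 and -0.44), were also called lower. The Apoe call held in 2 of 9 fits and those of Myo10 and Ncan in 4.

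Targets of p53, the transcription factor of the DNA damage and stress response, had 14 of 29 measured members called higher and 1 lower, against 5.12% and 5.39% of all genes. The list's median fitted change was 0.65, against -0.01 over all genes, and its median ratio was 0.66, 0.64 and 0.97 by label, positive each time. Perp, a membrane protein gene induced in p53-dependent cell death (ENSMUSG00000019851, chromosome 10, 18845020 to 18857073), went from 6.98, 9.81 and 3.62 to 38.1, 69.6 and 27 CPM. The lowest sh902 library was above the highest control, and the fold change was 6.62 (edgeR adjusted p = 0.00117). Plk2, a kinase gene of the p53 response, went from 66, 146 and 43.9 to 226, 351 and 146 CPM, and Phlda3, an inhibitor of Akt, from 66.4, 115 and 37.4 to 160.3, 280.0 and 132. The groups of Plk2 overlap by a little, since its 30_08 control lies just above the 03_09 sh902 library. Ccng1, for cyclin G1, was the most abundant, at 358, 823 and 264 and 826, 1685 and 776 CPM. Cdkn1a, the gene of the cyclin-dependent kinase inhibitor p21, had ratios of 1.43, 1.17 and 2.47 and a fitted change of 1.69 ± 0.24 (SE, edgeR adjusted p = 0.00969). Of the BCL2 family, which sets the threshold for mitochondrial cell death, edgeR called 2 of 14 measured members higher and 0 lower, while DESeq2 called 2 higher and 2 lower, limma-voom 2 and 1, and 2 were lower at an unadjusted edgeR p under 0.05. The higher ones were Bax (0.62) and Pmaip1 (1.80), the genes of an executioner and of the BH3-only protein Noxa. Calls of Perp, Plk2 and Phlda3 held in all 9 fits, Ccng1 and Pmaip1 in 8, Cdkn1a in 7 and Bax in 2; the list's count of higher members was 3 when the undated sh902 library was left out and at most 16 in the other fits.

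In the 3 lists of differentiating neural cells edgeR called members lower and 0 higher, where over all genes 5.39% were called lower and 5.12% higher. DESeq2 and limma-voom called 2 and 1 neuronal genes higher, and at an unadjusted edgeR p under 0.05 there were 2 neuronal and 1 astrocyte genes on that side. The oligodendrocyte lineage list had 9 of 16 measured members lower with a median fitted change of -1.84, the astrocyte list 10 of 19 (median -1.08) and the neuronal list 11 of 24 (median -0.88). The 30_08 label gave the smallest medians, at -0.87, -0.49 and -0.34, against -1.97, -1.73 and -0.85 for the undated label and -2.58, -0.85 and -1.09 for 03_09. The controls were themselves unlike: the astrocyte list summed to 13370, 3911 and 20720 CPM with shNT and 4025, 2914 and 8423 with sh902. Its 30_08 control lay below 2 of the sh902 libraries, so the summed groups overlap. Neuronal genes summed to 4266, 2041 and 5374 and 1831, 1228 and 2595 CPM, and oligodendrocyte lineage genes to 2742, 3256 and 3548 and 1621, 1394 and 2408. In the last list the groups were apart, with every sh902 library under every control. That list counts Gpr17 and Lims2 separately, although they overlap on opposite strands. Whether their calls share reads was not tested. In bulk RNA, fewer cells of a type and less RNA per cell cannot be told apart.

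Among oligodendrocyte genes Sox8, a transcription factor gene of the lineage, stood at 467, 261 and 432 CPM with shNT and 125, 80.2 and 239.6 with sh902, with no overlap (-1.50 ± 0.22 (SE, edgeR adjusted p = 0.00997)). Pdgfra, the PDGF receptor gene of oligodendrocyte precursors, went from 74.7, 11.1 and 266 to 14.6, 6.11 and 57.6 CPM, and the myelin gene Mbp from 4.49, 0.807 and 23.6 to 0.761, 0.47 and 3.86. Olig2, which marks the lineage more broadly, stood at 483, 757 and 471 CPM with shNT and 408, 303 and 438 with sh902 and was not called (edgeR adjusted p = 0.2). Sox10 had a positive ratio at 30_08 (-3.26, 0.45 and -2.60), where its control held 0.231 CPM, and its call held in 2 fits. Without the undated sh902 library no member of the neuronal, astrocyte or oligodendrocyte lineage lists was called lower.

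Among astrocyte genes Clu, the gene of the secreted chaperone clusterin, had the smallest adjusted p, with 63.4, 8.38 and 271 CPM under shNT and 13.3, 3.55 and 64.4 under sh902 (-1.91 ± 0.26 (SE, edgeR adjusted p = 0.00915)). Aqp4, the water channel gene of astrocyte endfeet, went from 645, 46.2 and 1514 to 56.3, 12.1 and 292 CPM. Gfap was lower in the undated and 03_09 sh902 libraries (67.4 and 343 CPM, against 610 and 1377) and higher at 30_08 (27.3 against 8.77), and was not called (edgeR adjusted p = 0.474). Aldh1l1, a broad astrocyte gene, was not called either, with a log2 fold change of 0.08. Of the neuronal genes, Insm1, a transcription factor gene of neuronal progenitors, went from 33, 7.73 and 52.8 to 9.56, 3.08 and 19.5 CPM, with ratios of -1.78, -1.31 and -1.44. Stmn3, a microtubule regulator gene, went from 27.8, 25.1 and 42.5 to 6.76, 8.42 and 15.1 CPM, with no overlap. Dcx, the doublecortin gene of migrating neuroblasts, showed ratios of -3.03, -0.83 and -3.81, and Map2 was the most abundant member named, at 1144, 676 and 1690 and 627, 464 and 838 CPM. Summed levels of 5 neuron markers were 54.4, 7.11 and 207 CPM with shNT and 5.51, 4.4 and 16.8 with sh902. Most of the shNT sums came from Tubb3 (40.9, 3.27 and 93.9 CPM) and Dcx (9.97, 1.5 and 104). Of the other markers, Snap25 (-1.07, edgeR adjusted p = 0.0787) and Syt1 (0.29, edgeR adjusted p = 0.678) were not called, and Rbfox3 did not pass the expression filter. The part that the cell mixture of each culture has in these results was not tested. The Dcx, Mlc1 and Tubb3 calls held in 4 fits.

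Of 35 measured neural stem and progenitor genes 4 were called higher (11.4%) and 8 lower (22.9%), against 5.12% and 5.39% of all genes. Most members were lower, with 24 negative and 4 positive at all 3 labels and a median fitted change of -0.48. Both counts of called members fell to 0 in at least 1 fit that left out a library. Filament and niche genes were on the higher side. Beside Nes and Tnc these were Vim, the vimentin gene, at 2715, 2946 and 1759 and 3823, 5794 and 2912 CPM, and the receptor gene Fgfr1 (0.79). On the lower side Nfib, a nuclear factor gene of glial development, stood at 705, 739.5 and 589 CPM with shNT and 413, 379.9 and 393 with sh902, with no overlap. Lhx2, a LIM-homeodomain transcription factor gene, had ratios of -0.73, -1.14 and -0.58. Sox9 (-0.75), Nfix (-1.06), Hes5 (-2.29) and Prom1 (-2.03) were also called lower; these 4 and Fgfr1 were named after their values were seen. Sox2 was not called (-0.51, edgeR adjusted p = 0.116), nor were Fabp7 (-0.34) and Slc1a3 (-0.58). The Vim call held in 1 fit and that of Nes in 6.

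**Figure D3:**
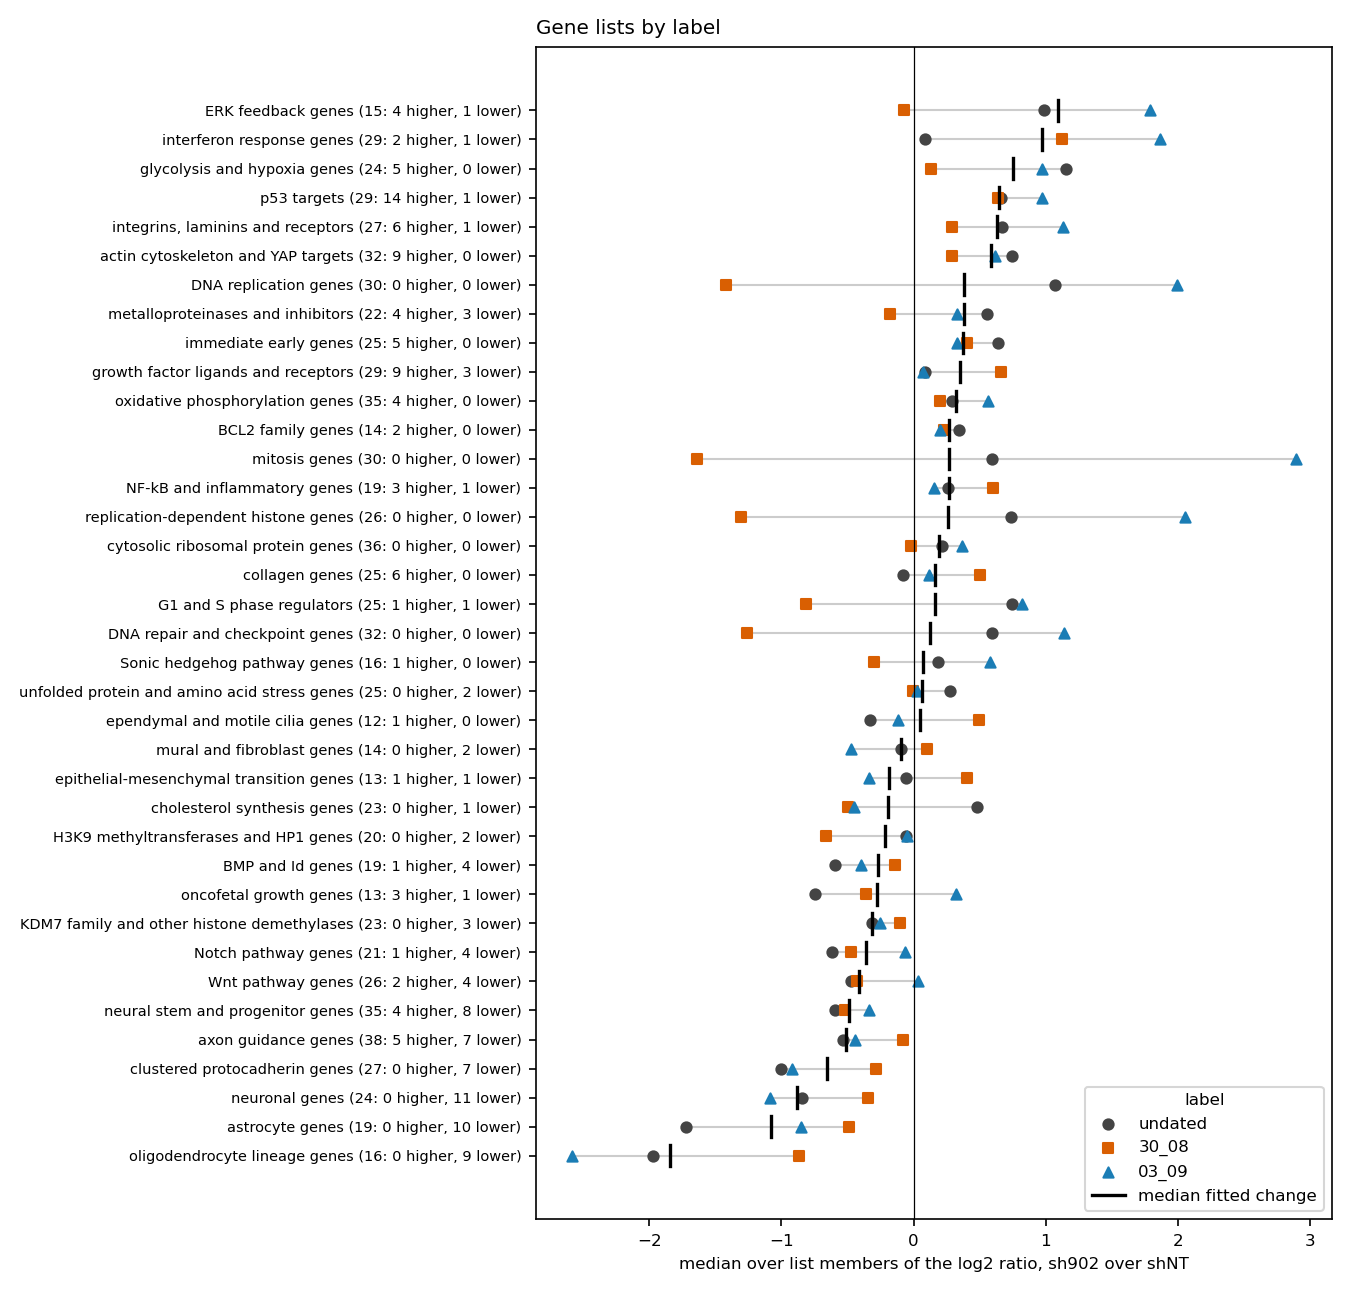
Median over list members of the log2 ratio of sh902 to shNT at each label (points) and of the fitted change (black bars), for lists with at least 10 measured members; the row names give members measured, called higher and called lower. Oligodendrocyte, astrocyte and neuronal lists lie left of 0 at every label and p53 targets right of it, while the medians of mitosis, DNA replication, histone and DNA repair genes lie left of 0 at 30_08 and right of it at the other labels.

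Cell cycle genes had ratios of opposite sign at different labels. No member of the mitosis, DNA replication, DNA repair or replication-dependent histone lists (30, 30, 32 and 26 measured) was called by edgeR, DESeq2 or limma-voom with the block. At an unadjusted edgeR p under 0.05 there were 0, 0, 1 and 1 of them, both on the higher side. The median ratio of mitosis genes was 0.60 at the undated label, -1.64 at 30_08 and 2.89 at 03_09, and of DNA replication genes 1.07, -1.42 and 1.99. Hmmr, a spindle protein gene of mitosis, stood at 49.2, 145 and 5 CPM with shNT and 74.6, 41.5 and 80.5 with sh902. The wide spread was in the controls, at 5 to 145 CPM, whereas sh902 libraries lay between 41.5 and 80.5 CPM. DNA replication genes summed to 963, 3289 and 472 CPM with shNT and 2008, 1220 and 1690 with sh902. The 30_08 control was thus above all sh902 libraries, and the undated and 03_09 controls were below all of them. Without the 30_08 control, edgeR called 30 of 30 DNA replication, 6 of 30 mitosis, 21 of 26 histone, 16 of 32 DNA repair and 14 of 25 G1 and S phase genes higher. With all libraries 1 of the 25 G1 and S phase regulators was called higher and 1 lower. Ccnd3, for cyclin D3, was called higher at 43.5, 82.4 and 44.3 and 112, 132 and 92.5 CPM, with no overlap. Cdkn1c, the gene of the inhibitor p57, was called lower, with ratios of -3.44, -1.04 and -3.22.

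**Figure D4:**
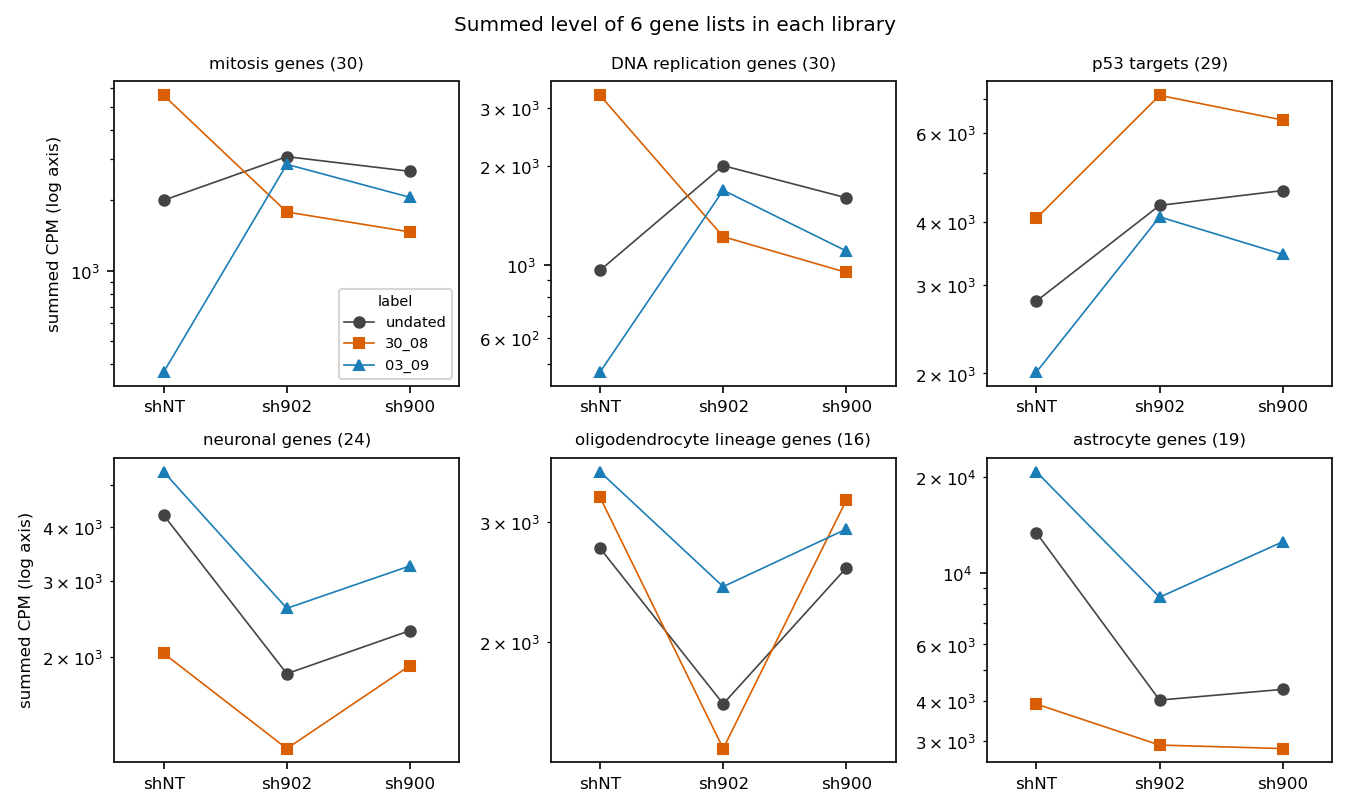
Summed CPM of 6 gene lists in each of the 9 libraries on log axes, with lines joining libraries of 1 label. The spread of the mitosis and DNA replication lists lies mainly among the 3 shNT libraries, at 370.3 to 5597 CPM for mitosis genes, whereas p53 targets are higher and oligodendrocyte lineage genes lower with sh902 than with shNT at each label.

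Of 29 measured growth factor ligands and receptors 9 were called higher (31%) and 3 lower (10.3%), against 5.12% and 5.39% of all genes, with a median fitted change of 0.35. The 9 fell to 1 without the undated sh902 library. Pdgfa, a PDGF chain gene, went from 12.3, 35.7 and 8.62 to 65.5, 191 and 27.9 CPM, with ratios of 2.40, 2.42 and 1.69, while its receptor gene Pdgfra was called lower. Hbegf, an EGF receptor ligand gene, went from 10.2, 66.3 and 10.8 to 116, 307 and 38.7 CPM, a fold change of 5.67 (edgeR adjusted p = 0.0135). Nrg1, a ligand gene of ERBB receptors, had nearly the same ratio at each label (1.57, 1.61 and 1.64), and Ereg, for epiregulin, went from 0.0731, 0.0769 and 0.0763 CPM to 3.9, 0.769 and 1.2 CPM. Among 15 feedback genes of the ERK kinase cascade 4 were called higher and 1 lower: the phosphatase genes Dusp4 (1.64) and Dusp5 (1.25) and the Ras pathway inhibitor genes Spred1 (0.73) and Spred3 (0.60, named after its values were seen) on the higher side, the receptor antagonist gene Il17rd (-1.19) on the lower. Of 25 immediate early genes, transcription factors switched on within minutes of a stimulus, 5 were called higher and, by all 3 tools and at an unadjusted p, 0 lower. The immediate early count was 0 without the undated sh902 library, and the ERK count of higher genes ran over 0 to 10 with 1 library left out. Fosl2, an AP-1 subunit gene, stood at 17.5, 20.9 and 10.3 and 55.6, 102 and 27.8 CPM, with no overlap (1.81 ± 0.20 (SE, edgeR adjusted p = 0.00625)). Klf6 (1.18), Klf4 (1.49) and Maff (1.49) were the others named. Calls of Pdgfa held in all 9 fits, Hbegf, Ereg, Nrg1 and Fosl2 in 8, Klf4 and Klf6 in 7, Spred1 in 4 and Dusp5 in 2.

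Promoter windows of 300 bases, from 250 before to 50 after the transcript start, were read from RefSeq (GRCm38.p6) for 11460 of the genes tested (14658 windows). The AP-1 motif TGACTCA, searched on both strands, was in 6.83% of windows of genes called higher (60 of 878), 3.93% of those called lower (36 of 916) and 3.69% of all. The cyclic AMP response element TGACGTCA was in 3.19%, 1.86% and 2.9% of them, and the E-box CACGTG in 10.3%, 5.79% and 9.5%. The box CCAAT was in 37%, 31.9% and 37.6%, the TEAD motif GGAATG in 13.7%, 12.6% and 12.4%, and an E2F site (TTTCCCGC or TTTGGCGC) in 1.94%, 2.29% and 2.7%. The letters of none of these motifs hold those of another. A match is a description of the letters only. Windows of 4 named genes with a match are shown because they hold these motifs near genes of each direction: Lif, the gene of a cytokine that signals through STAT3, and Aldoa, a glycolytic enzyme gene, were called higher with AP-1 matches, Entpd2, an ectonucleotidase gene of neural progenitors, was called lower with one, and the p53 target Plk2 has a cyclic AMP response element. Stretches of 80 bases are written 5′ to 3′ on the gene's strand with the motif, or its reverse complement TGAGTCA, in capitals.
Lif, chr11:4257318-4257397, plus strand: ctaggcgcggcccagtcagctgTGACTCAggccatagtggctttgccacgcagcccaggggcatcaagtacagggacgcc
Aldoa, chr7:126799425-126799504, minus strand: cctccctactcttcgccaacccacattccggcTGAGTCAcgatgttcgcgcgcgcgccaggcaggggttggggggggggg
Entpd2, chr2:25395739-25395818, plus strand: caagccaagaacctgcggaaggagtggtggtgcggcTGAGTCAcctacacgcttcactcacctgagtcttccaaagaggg
Plk2, chr13:110394946-110395025, plus strand: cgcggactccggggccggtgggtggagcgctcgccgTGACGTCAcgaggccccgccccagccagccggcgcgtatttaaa
Lif stood at 1.97, 7.73 and 0.916 CPM with shNT and 11.7, 22.3 and 6.43 with sh902 (2.21 ± 0.38 (SE, edgeR adjusted p = 0.0144)). Entpd2 stood at 4.9, 0.115 and 14.4 and 0.0305, 0.0427 and 1.08 CPM, so its 30_08 libraries hold almost no counts.

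Of 32 measured actin cytoskeleton genes and targets of the coactivator YAP edgeR called 9 higher (28.1%, against 5.12% of all genes) and 0 lower (1 by DESeq2, 0 by limma-voom, 2 at an unadjusted edgeR p under 0.05), with a median fitted change of 0.59. Cavin1, a coat protein gene of caveolae, stood at 74.1, 118 and 43 CPM with shNT and 371, 268 and 163 with sh902, with no overlap (1.80 ± 0.21 (SE, edgeR adjusted p = 0.00656)). Actn4, an actin cross-linker gene, had ratios of 1.10, 1.14 and 0.72, and S100a10 of 1.62, 0.88 and 1.58. Of 25 collagen genes edgeR called 6 higher and 0 lower, with 2 lower by DESeq2 and at an unadjusted edgeR p under 0.05 and 0 by limma-voom. Col4a2, a basement membrane collagen chain gene, stood at 19.4, 10.7 and 10.5 and 43.3, 37.5 and 36.8 CPM, and Col5a1 at 11.8, 22.1 and 6.14 and 38.6, 54.3 and 17.9. Of 27 integrins, laminins and matrix receptors 6 were called higher (22.2%) and 1 lower. Itga3, the gene of an integrin alpha chain that binds laminin, had a fitted change of 1.74, and Cd44, the hyaluronan receptor gene, of 1.21. Of 22 metalloproteinases and inhibitors 4 were called higher (18.2%) and 3 lower (13.6%; 4 and 5 by DESeq2), including Timp1 (2.23), Adamts4 (0.85) and Mmp17 (-0.97). Leaving out the undated sh902 library left 0 actin and YAP genes called higher, leaving out the 30_08 control gave 16. Over the same 9 fits the higher counts were 1 to 7 for collagens, 0 to 15 for integrins and laminins and 0 to 7 for metalloproteinases, and the call of Col4a2 held in 4 of 9 fits.

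Of 24 glycolysis and hypoxia genes 5 were called higher (20.8%, against 5.12% of all genes) and, by all 3 tools and at an unadjusted p, 0 lower, with median ratios of 1.16, 0.14 and 0.97 by label. Pfkp, a phosphofructokinase gene at the committed step of glycolysis (ENSMUSG00000021196, chromosome 13, 6579768 to 6648777), stood at 18.3, 32.9 and 28.2 CPM with shNT and 136, 169 and 91.1 with sh902, and its groups did not overlap. The fold change was 4.9 (edgeR adjusted p = 0.00547), and the call held in all 9 fits. Adm, the hypoxia-inducible gene of the peptide adrenomedullin, went from 17.9, 16.2 and 7.21 to 81.1, 48.1 and 44 CPM and also held in all 9. Aldoa and Eno1 had 30_08 ratios of only 0.35 and 0.42, against 1.27 and 1.18 at the undated label, and their calls held in 3 fits. Of 35 genes of oxidative phosphorylation 4 were called higher (11.4%) and, likewise, 0 lower. The 4 rose by at most 1.54-fold: Ndufa4 (0.63), Ndufv2 (0.60), Cox5b (0.50) and Uqcrc2 (0.48), and each call held in at most 2 fits. With 1 library left out the counts of higher genes were 2 to 14 for glycolysis and hypoxia and 0 to 11 for oxidative phosphorylation, highest without the 30_08 control. Of 36 cytosolic ribosomal protein genes 0 were called by edgeR, DESeq2 or limma-voom (median 0.19), with 4 higher and 1 lower at an unadjusted edgeR p under 0.05. Of 23 cholesterol synthesis genes edgeR called 1 lower and DESeq2 4 (limma-voom 1, 5 at an unadjusted edgeR p): the 1 was Insig1, a brake on sterol synthesis (-0.95). The serine synthesis gene Phgdh (-0.66) and the amino acid transporter gene Slc7a5 (-0.62) were the 2 of 25 stress and amino acid genes called by edgeR, both lower (DESeq2 called 1 higher and 2 lower).

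Signalling pathways of the neural stem cell niche, Sonic hedgehog apart, had calls in both directions, as had all genes tested (5.12% higher and 5.39% lower). The shares called higher in the Notch (4.76%), BMP (5.26%), Wnt (7.69%) and Sonic hedgehog (6.25%) lists were near that of all genes. The shares called lower were 19%, 21.1% and 15.4% for Notch, BMP and Wnt, and each of these counts fell to 0 in at least 1 fit that left out a library. In the Notch pathway, which holds stem cells undifferentiated through contact between neighbours, 4 of 21 measured genes were called lower and 1 higher. The ligand gene Dll1 went from 477, 183 and 391 to 114, 90.7 and 245 CPM and the target gene Hes5 had a fitted change of -2.29, whereas the ligand gene Jag1 went from 29, 55 and 25.1 to 132, 125 and 71.9 CPM, with no overlap. Rbpj, the pathway's transcription factor, was called lower (-0.62). Of 19 BMP and Id genes 4 were lower and 1 higher: Bmp7 stood at 5.85, 7.34 and 14.3 and 18.3, 12.6 and 40.3 CPM, and Nog, the gene of the BMP antagonist noggin, at 1.13, 0.846 and 3.21 and 0.0914, 0.256 and 0.332. Of 26 Wnt genes 2 were higher and 4 lower. The receptor genes went opposite ways, Fzd1 from 24.9, 36.6 and 26 to 109, 65.1 and 78.5 CPM and Fzd2 from 52.8, 36.1 and 47.1 to 22.3, 15.3 and 27.2, neither with overlap. Of 16 Sonic hedgehog pathway genes edgeR called Shh itself and no other; DESeq2 called 3 higher and 1 lower and limma-voom 3 higher, and without the 30_08 control edgeR called 5 higher. Of 38 axon guidance genes 5 were higher and 7 lower: Unc5b, a netrin receptor gene, went from 9.61, 15 and 5.57 to 47.8, 62.5 and 24.4 CPM and held its call in all 9 fits, and Epha5, an ephrin receptor gene, from 83.2, 37.8 and 118 to 27.5, 12.8 and 59.3. Dll1 and Rbpj held in 4 and 3 fits.

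The lists of chromatin enzymes had few calls beside the targeted gene. Of 23 histone demethylases, Phf2 included, edgeR called 3 lower (13%, against 5.39% of all genes) and 0 higher (DESeq2 0, 3 at an unadjusted edgeR p under 0.05): Phf2, Kdm1a, the flavin-dependent demethylase gene also known as LSD1, at 154, 132 and 171 CPM with shNT and 89.2, 61.4 and 97.2 with sh902, and Kdm4b (-0.56). Of 20 genes of H3K9 methylation, HP1 and related silencing factors edgeR called 2 lower (10%) and 0 higher. DESeq2 called 4 lower and limma-voom 2, and 8 were lower at an unadjusted edgeR p under 0.05, each with 0 higher. The edgeR count of lower genes in each of these lists fell to 0 in at least 1 fit that left out a library. Dnmt3a, a de novo DNA methyltransferase gene (ENSMUSG00000020661, chromosome 12, 3806007 to 3914443), stood at 204, 171 and 234 and 111, 82.2 and 116 CPM, with the lowest control well above the highest sh902 library (-0.98 ± 0.13 (SE, edgeR adjusted p = 0.00779)). Ehmt1, the gene of the H3K9 methyltransferase GLP, had ratios of -0.45, -1.15 and -0.62, but its call was lost in each of the 9 fits that left out 1 library. Of 27 clustered protocadherin genes, cell recognition genes that lie side by side on chromosome 18, 7 were called lower (25.9%) and, by all 3 tools, 0 higher, with 19 negative at all 3 labels. Pcdhb2 stood at 12.7, 7.08 and 15.4 CPM with shNT and 3.41, 3.03 and 4.94 with sh902. These genes are close relatives, between which reads could be split, and their count fell to 0 with the undated control left out and rose to 17 with the 30_08 control left out. The call of Dnmt3a held in 8 fits, of Kdm1a in 5 and of Kdm4b in 2.

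Of 29 interferon response genes edgeR called Ifi204 and Ifi202b higher and the class I antigen gene H2-D1 lower (144, 48.4 and 76 CPM with shNT, 76.7, 23.9 and 60.6 with sh902). The groups of H2-D1 overlap, and its call held in 2 of 9 fits. Of the 29 genes DESeq2 called 9 higher and limma-voom 4, and 11 were higher at an unadjusted edgeR p under 0.05. The list's median was 0.98, with ratios of 0.09, 1.12 and 1.87 by label. Of 19 NF-kB and inflammatory genes edgeR called 3 higher and 1 lower and DESeq2 5 and 2; Tlr4, the receptor gene for lipopolysaccharide, stood at 0.329, 0.0769 and 0.267 and 6.58, 0.897 and 4.56 CPM and held its call in all 9 fits, and the adhesion gene Icam1 had a fitted change of 2.32. Only 1 of 10 microglia genes, P2ry12, passed the expression filter, below 0.9 CPM in all 6 libraries and not called. Of 12 measured ependymal and cilia genes 1 was called higher and 0 lower, of 14 mural and fibroblast genes 0 and 2, and of 13 genes of the epithelial-mesenchymal transition 1 and 1. Among all genes 5.12% were called higher and 5.39% lower. The interferon (6.9% and 3.45%) and transition (7.69% and 7.69%) lists were near these shares, as were the share of ependymal genes called higher (8.33%) and that of NF-kB genes called lower (5.26%). Of 5 endothelial genes edgeR and limma-voom called 0 and DESeq2 called 1 lower, the same number as at an unadjusted edgeR p under 0.05. Of 13 oncofetal growth genes 3 were higher (23.1%) and 1 lower (7.69%): Hmga2, a chromatin architecture gene of fetal stem cells, went from 2.48, 18.2 and 1.11 to 26.3, 109 and 6.22 CPM, Hmga1 had ratios of 1.81, 1.52 and 1.20 and Igf2bp2 of 1.21, 1.06 and 1.07. With 1 library left out the counts of higher genes were 2 to 5 for interferon, 1 to 4 for NF-kB and 0 to 4 for oncofetal genes.

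The other hairpin gave the test of what differs with sh902. Against shNT, sh900 had 949 genes called higher (5.39%) and 608 lower (3.45%) in the same fit. That comparison shares its controls with the one for sh902, so values are set side by side and their likeness is not counted as evidence. Directly between the hairpins, 306 genes were called higher (1.74%) and 437 lower (2.48%) with sh902. The p53 target Pmaip1 was called higher than with sh900, at 35.4, 53.6 and 29.6 CPM against 14.9, 13.3 and 11.9, a log2 difference of 1.50 ± 0.23 (SE, edgeR adjusted p = 0.0235). Perp, Phlda3, Plk2 and Cdkn1a had nearly the same fitted change with sh900 (2.96, 1.45, 1.65 and 1.53), and for Perp the difference between hairpins was -0.23 ± 0.15 (SE, edgeR adjusted p = 0.42). A p above the threshold does not show that the hairpins act alike.

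Genes with the largest difference in favour of sh902 were Tacr1, Fam135b, Gda, Ttn, Efcab8 and Dach2, and against it Htr1b, Astn2, Abca8a, Gstt3, Palm3 and Gsg1l. Ttn, the giant muscle protein gene titin, stood at 24.4, 36.3 and 15.5 CPM with sh902 and 2.89, 4.67 and 4.62 with sh900, against 7.16, 4.77 and 6.49 with shNT, and its sh902 libraries were above all 6 others. Fam135b stood at 18.9, 3.67 and 12.4 and 2.44, 0.713 and 1.32 CPM, a log2 difference of 2.86 ± 0.34 (SE, edgeR adjusted p = 0.0184), and Dach2, a transcription cofactor gene, at 3.05, 13.8 and 2.49 and 0.386, 2.14 and 0.66. Ass1 was called higher than with sh900 too, by 1.31 ± 0.20 (SE, edgeR adjusted p = 0.0235), from 22.9, 10.1 and 13.1 CPM. Unc5b (1.02 ± 0.15 (SE, edgeR adjusted p = 0.0212)) and Col4a2 (1.52 ± 0.31 (SE, edgeR adjusted p = 0.0396)) differed in the same direction, and Col4a2 was close to shNT with sh900 (22.8, 6.46 and 15.9 CPM). Astn2, at 1.16, 0.342 and 2.99 CPM with sh902 and 15.9, 3.09 and 17.2 with sh900, and the serotonin receptor gene Htr1b (-3.32 ± 0.49 (SE, edgeR adjusted p = 0.0228)) differed the other way through a rise with sh900; neither was called with sh902 against shNT.

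Lower than with sh900 were several genes that sh900 left near the control. Clu stood at 57.7, 19.8 and 263 CPM with sh900, against 63.4, 8.38 and 271 with shNT, and the hairpins differed by -2.23 ± 0.26 (SE, edgeR adjusted p = 0.0184). Dnmt3a stood at 206, 126 and 207 CPM with sh900 (difference -0.79 ± 0.13 (SE, edgeR adjusted p = 0.0254)) and Kdm1a at 139, 149 and 139 (-0.81 ± 0.16 (SE, edgeR adjusted p = 0.0377)). Epha5 differed by -1.21 ± 0.20 (SE, edgeR adjusted p = 0.0258). H2-D1 was called in opposite directions, lower with sh902 and higher with sh900 (299, 67.1 and 171 CPM, log2 fold change 0.89, edgeR adjusted p = 0.0239). Its call with sh902 held in only 2 of 9 fits. A pair of genes called higher with both hairpins were lower with sh902 than with sh900: Anxa1, an annexin gene (7.4, 16.4 and 2.65 and 20.5, 25.8 and 7.67 CPM), and the semaphorin gene Sema3e (-1.45 ± 0.22 (SE, edgeR adjusted p = 0.0216)). Of 32 actin and YAP genes 5 and of 38 axon guidance genes 5 were lower with sh902 than with sh900, against 2.48% of all genes. The count of 743 genes called between the hairpins fell to 0 in each of 4 fits that left out a library: the undated or 30_08 sh902 library or the undated or 30_08 sh900 library. At an unadjusted p under 0.05 these 4 fits had 2448, 3247, 2536 and 2419 genes. The count was 120 without the 03_09 sh902 library, 402 without the 03_09 shNT library, 313 without the 03_09 sh900 library and 1992 without the 30_08 shNT library.

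**Figure D5:**
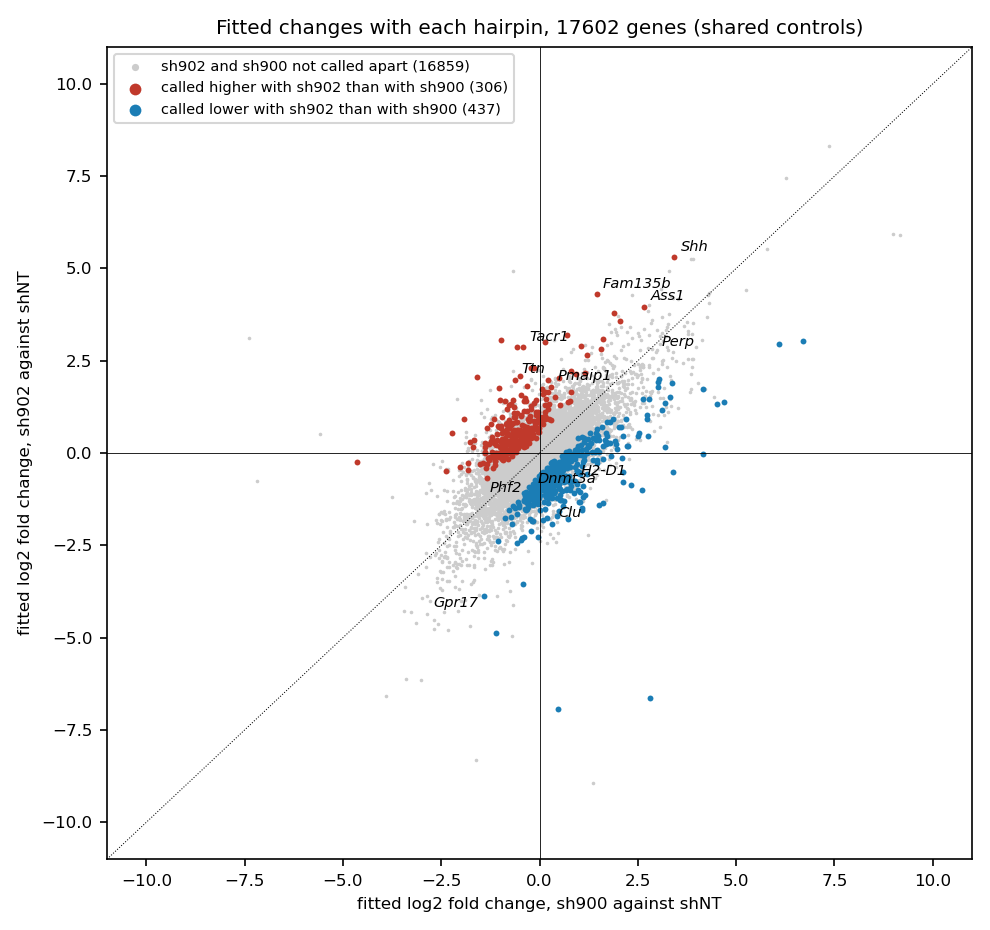
Fitted log2 fold changes against shNT of sh902 (vertical) and sh900 (horizontal) for 17602 genes, with genes called higher (red) or lower (blue) with sh902 than with sh900; the dotted line marks equal change. Both axes use the same shNT libraries, which by itself pulls points along the line. Fam135b, Tacr1, Ttn and Pmaip1 lie above it, and Clu and Dnmt3a below it near 0 for sh900.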

How the data were processed

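RNA was measured in 9 libraries, of which the 3 with sh902 and the 3 with shNT were compared. The authors deposited 1 table of expected counts from RSEM for 54232 Ensembl genes. Per the submitters' processing notes, FastQC, cutadapt, Trimmomatic 0.36, STAR 2.5.0a, RSEM and GRCm38 were used; the counting strand is not given in the sources used here, so sense and antisense genes that overlap cannot be told apart. Symbols, positions and biotypes came from GENCODE (mouse, GRCm38) for 54165 genes, and 67 had no match.

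Expected counts were rounded to whole numbers. Genes past edgeR's filterByExpr by group (17602) entered 1 fit on all 9 libraries, with group and title label as terms and 4 residual degrees of freedom (R 4.3.3, edgeR 4.0.16, glmQLFit with robust estimation, TMM scaling). The quasi-likelihood F test gave p-values, adjusted by Benjamini-Hochberg over all genes; a gene was called under 0.05. Standard errors were taken as |log2 fold change| over the root of F. Same-label ratios used log2 CPM with a prior count of 2. No library of the compared groups duplicated another. The procedure was tested on simulated data. Members, the 39 gene lists and the tests were chosen with earlier results of these data known.

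Named genes were Phf2; called genes with a mean of at least 1 CPM and ratios in 1 direction that ranked in the top 12 each way by fold change, the top 8 by smallest ratio and, at 2-fold or more, the top 6 by level; up to 4 called members of each list by adjusted p; the top 6 each way between hairpins; and the 8 of widest range over labels. Numbered gene models were left out, and 2 genes are not reported here. Genes named outside this rule are marked in the text or belong to the marker lists. Alternatives were DESeq2 1.42.0, limma-voom (limma 3.58.1), other scalings and filters, fits without the block, on the compared groups or dated libraries alone, and without each library.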

Additional observations from a re-analysis of the deposited data

Results flagged for a closer look

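For 8 genes the same-label ratio of sh902 to shNT lay on both sides of 0 and spanned the widest range over the 3 labels. With 1 library per label and group these differences between labels were not tested, and none of the 8 genes was called over all labels by edgeR. Lgi4, which encodes a secreted protein of glia, ranged over 7.864 on the log2 scale: its ratios were -4.68, 3.19 and -3.87 at the undated, 30_08 and 03_09 labels, from 8.84, 0 and 19.2 CPM with shNT to 0.274, 0.598 and 1.25 with sh902. The 30_08 ratio of Lgi4 thus rests on a control without a count. Lgi4 also overlaps Fxyd3, which lies on the other strand, so reads of the pair cannot be told apart. Fam129a ranged over 6.365 (ratios of -5.38, 0.99 and -4.64) and Dhrs3, a retinaldehyde reductase gene, over 5.732 (-4.61, 1.12 and -3.20). Both were low in the 30_08 control, at 0.308 and 0.0385 CPM.

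Hmmr, a mitotic spindle gene, ranged over 5.792 (0.60, -1.80 and 3.99), Nrgn, the neurogranin gene, over 5.794 (0.38, -1.40 and 4.39), and Neurl1b, a ubiquitin ligase gene of the Notch pathway, over 5.847 (0.10, -1.89 and 3.96). These 3 were highest in the 30_08 control and lowest in the 03_09 control among the shNT libraries. Rsc1a1 ranged over 6.379 (5.15, 0.51 and -1.23), with 0 CPM in the undated control. Rnu2-10, a small nuclear RNA gene with many near-identical copies between which counting could split reads, ranged over 7.314 (-6.79, 0.52 and -0.51), with 0 CPM in the undated sh902 library.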

How the results depend on the processing

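None of the 142 called genes named by the rule above reversed in another setting that measured it. For genes named outside that rule, the sign was compared only in fits that left out 1 library. The label pairs the shNT and sh902 libraries only in part: deviations from the group means correlated at 0.402 (30_08), 0.456 (03_09) and 0.0799 (undated) within a label, and what the labels mark is not stated. The undated libraries correlated more across labels: undated shNT with 03_09 sh902 at 0.302, and undated sh902 with 30_08 shNT at 0.163. Other pairs of an shNT and an sh902 library across labels lay between -0.553 and -0.246. With no replicate block 0 genes were called higher, 0 lower and 0 between sh902 and sh900 (2532 at an unadjusted p under 0.05), and Phf2 changed by -1.17 (edgeR adjusted p = 0.149). With the block on the compared groups alone the counts were 0, 0 and 2595 and Phf2 was at -1.19 (0.0746). There 888 of the 902 and 930 of the 948 genes had an unadjusted p under 0.05. These genes were chosen by a fit that holds the same libraries, so this describes the calls and adds no support. The dated libraries alone gave 0, 0 and 0 (1117 and 1204 against shNT and 1843 between hairpins unadjusted) and -1.25 for Phf2 (0.163). DESeq2 called 1490 lower and 1783 between hairpins, and leaving out the low-count filter gave 1531 between hairpins. Limma-voom, RLE factors, library size alone and a filter of 1 CPM in 3 libraries kept these counts within 1.5 times. Leaving out 1 library in turn gave 40 to 1986 higher, 5 to 1771 lower, 0 to 1992 between hairpins, and -1.44 to -0.99 for Phf2. All 902 and 948 genes had the same sign in these 9 fits, and 40 and 5 kept their call in every one. Each of these fits shares most libraries with the main fit, so the shared sign adds no support. Of 142 named genes called, 126 lost the call in at least 1 fit, all 126 without the undated sh902 library. The cause was not tested. The median of all genes moved by less than 0.1 between scalings, from -0.01 to 0.02. Genes near 0.1 CPM rest on few counts per library, which limits their ratios.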

Other observations

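Subunit genes of the SWI/SNF complexes, which move nucleosomes with the energy of ATP, were looked at after their values had been seen, so their counts are a description. Of 30 genes listed 29 were measured, 9 were called lower with sh902 and 1 higher, against 5.39% and 5.12% of all genes, and the median fitted change was -0.30. Smarcc2, a core scaffold subunit gene, stood at 269.5, 186 and 337 CPM with shNT and 115, 77 and 169.5 with sh902 in the undated, 30_08 and 03_09 libraries, with no overlap (log2 fold change -1.16 ± 0.16 (SE, edgeR adjusted p = 0.00927)). Smarce1, a subunit gene with an HMG box, stood at 143, 113 and 153 and 67.9, 44.6 and 81 CPM and Smarcd1 at 124, 111 and 133 and 72, 52.3 and 88.9, again with no overlap. With sh900 the same genes stood at 196, 189.8 and 250.3, at 116, 113 and 123 and at 131, 125 and 124 CPM. Bcl7a, Smarca2, Smarcc2, Smarcd1 and Smarce1 were called lower with sh902 than with sh900. Other genes called lower were the neuronal transcription factor genes Bcl11a (-2.03) and Bcl11b (-1.53), Smarcd3 (-0.63) and Brd9 (-0.54), and Smarcd2 was called higher (0.81). Against shNT, sh900 had 3 of the 29 genes called lower (Bcl7a, Bcl11b and Smarcd3) and 1 higher (Smarcd2). How the counts of this list change with a library left out was not tested.

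Only 45 genes kept their call against shNT in all 9 fits that left out a library, 40 higher and 5 lower; those below were chosen after their values were seen. Lmna, the gene of the nuclear lamins A and C, stood at 51.9, 67 and 30.5 CPM with shNT and 125, 237 and 82.3 with sh902 (1.51 on the log2 scale). Smad3, a transducer gene of TGF-beta signalling, stood at 36.4, 53.7 and 21.8 and 86.6, 135 and 69.5 CPM. Epha2, an ephrin receptor gene, had a fitted change of 3.33, and Tnfrsf12a, the gene of the receptor for TWEAK, of 3.25. On the lower side Dscam, a neuronal cell adhesion gene, stood at 36.9, 33.5 and 87.4 and 15.9, 10.1 and 27.3 CPM, with no overlap. Tub (-1.71), Vxn (-2.05), Pde9a (-1.82) and Sh3d19 (-1.45) were the other 4.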
